A study of Mus musculus with 2 samples.

Results

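The 37 genes of the mouse mitochondrial genome and 3 nuclear pseudogenes, Gm28661, Gm10925 and Gm28437, were examined in 2 RNA-seq libraries of male mouse hippocampus. They are 40 of 55536 annotated mouse genes. The members were chosen by name, as genes whose symbol starts with mt- together with the 3 pseudogenes, and comprise 13 mRNAs, 2 rRNAs, 22 tRNAs and 3 nuclear copies. The mice were 36 days old and of the strain B6CASTF1/J, an F1 hybrid. The labels call the tissue a layer of hippocampus and do not say which part was dissected. Each library was made from 300 ng of total RNA with ERCC spike-in transcripts, and the labels number the libraries as biological replicates 1 and 2 of the only group, with different biosamples and the same donor identifier. Nothing else in the labels says that they came from separate animals. No treatment or genotype was compared, so the comparisons are between classes of transcript, between the libraries and between the deposited tables. Each library has a gene table and a second table of transcripts with other columns and values. Levels are TPM, a relative abundance corrected for transcript length, and come from the gene table unless the second table is named. Where a pair of values is given for a gene, replicate 1 comes first.

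Mitochondrial DNA is a small circular genome that is inherited from the mother. Both of its strands are copied into long precursor RNAs, and most messages and rRNAs lie between tRNAs whose excision releases them. The messages encode subunits of the respiratory chain and of the ATP synthase, the rRNAs build the mitochondrial ribosome, and all other proteins of the organelle come from nuclear genes. Fragments of mitochondrial DNA have entered the nuclear chromosomes during evolution, and a young fragment still resembles its source closely. A read from such a stretch can be placed on the nuclear copy or on the mitochondrial gene.

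The nuclear copies matched mitochondrial genes without a single mismatch. In the GENCODE M21 transcript sequences, Gm28661 (mm10, chr1:24614885-24615565) was identical over its 681 bases to mt-Co2 (chrM:7013-7696), the gene of a cytochrome c oxidase subunit. Gm10925 (chr1:24613974-24614651) was identical over its 678 bases to mt-Atp6 (chrM:7927-8607), which encodes a membrane subunit of the ATP synthase. Gm28437 (chr1:24613189-24613971) was identical over its 783 bases to mt-Co3 (chrM:8607-9390), the gene of another cytochrome c oxidase subunit. All 3 copies lie on the minus strand of chromosome 1, side by side, and are annotated as unprocessed pseudogenes. The only difference within each pair is that the mitochondrial entry runs on for 3, 3 and 1 bases at its 3′ end. The last bases of each pair are printed 5′ to 3′ because they hold everything that tells the entries apart, and capitals mark the bases that the copy's entry lacks.
mt-Co2: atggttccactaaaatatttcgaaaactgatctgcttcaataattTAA
Gm28661: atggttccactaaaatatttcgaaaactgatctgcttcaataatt
mt-Atp6: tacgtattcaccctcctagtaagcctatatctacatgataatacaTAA
Gm10925: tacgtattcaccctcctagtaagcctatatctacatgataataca
mt-Co3: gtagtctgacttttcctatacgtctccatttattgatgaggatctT
Gm28437: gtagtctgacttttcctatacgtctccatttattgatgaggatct

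The same stretch of chromosome 1 holds 4 further pseudogenes that match mitochondrial messages. Gm28439 was identical over 876 bases to mt-Nd4, Gm10222 over 294 bases to mt-Nd4l and Gm28438 over 342 bases to mt-Nd3. The match of Gm28438 began at base 4 of both entries, and the bases before it were not all the same. Gm29216 (chr1:24615706-24616197) matched the end of mt-Co1 (chrM:5328-6872) over 483 bases with 1 substitution, A1066T, where the mitochondrial base is given first and positions are counted from the first base of mt-Co1. The junction is shown because it is the one place where a copy on chromosome 1 differed inside its match. Capitals mark the substituted base and the start that the local alignment left out, in which some bases are the same in both entries.
mt-Co1: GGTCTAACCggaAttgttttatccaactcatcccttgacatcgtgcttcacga
Gm29216: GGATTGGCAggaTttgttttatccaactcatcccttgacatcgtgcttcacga

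How far a read can tell these entries apart was measured by cutting each member into all windows of 100 bases, the length implied by the gene table's effective lengths of 99 bases below the transcript length. Each window was then searched in the 141767 transcripts of GENCODE M21. Of the 18 members with at least 100 bases, 7 shared no window with another entry. These were both rRNAs, mt-Nd1, mt-Atp8, mt-Nd5, mt-Nd6 and mt-Cytb. The other 11 shared some. For the nuclear copies every window, 582 for Gm28661, 579 for Gm10925 and 684 for Gm28437, occurred in the matching mitochondrial gene. In the other direction mt-Co2 had 3 of 585 windows in no other entry, mt-Atp6 3 of 582, mt-Co3 1 of 685, mt-Nd4l 3 of 198 and mt-Nd3 6 of 249. Sharing was partial for mt-Nd4 (60.8% of windows), mt-Co1 (30.8%) and mt-Nd2 (3.19%). Besides the entries on chromosome 1, 3 pseudogenes on chromosome 2 shared windows with members. They were Gm13341 with mt-Co2, Gm13340 with mt-Co1 and Gm13339 with mt-Nd2, and the highest gene-table level among them was 3.72 TPM. No window occurred on the opposite strand of another entry.

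**Figure D1:**
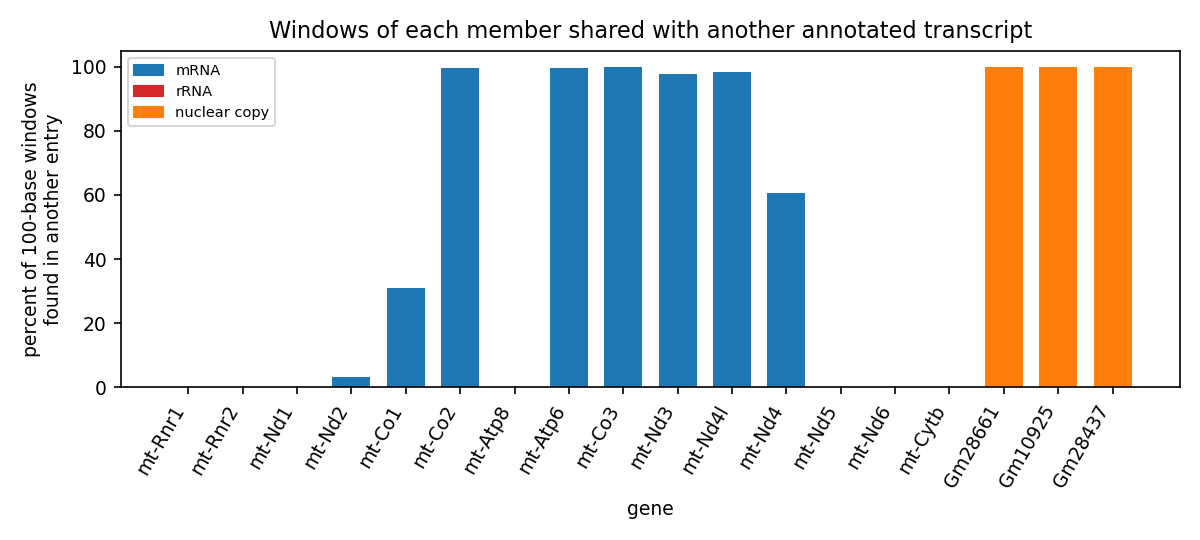
Percent of 100-base windows (vertical axis) of each member (horizontal axis) that also occur in another GENCODE M21 transcript, with mRNAs in blue, rRNAs in red and nuclear copies in orange. The 3 nuclear copies stand at 100%, 5 mRNAs stand above 97%, and both rRNAs and 5 mRNAs stand at 0.

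Replicate 1 held 28665109 and replicate 2 held 29633722 expected counts on mouse genes, so counting error is small for the members with reads. The tissue label was checked against markers. All 6 neuronal markers (Slc17a7, Neurod6, Prox1, Wfs1, Cpne4 and Gad1) and all 4 markers each of astrocytes, oligodendrocytes, microglia and endothelium passed 1 TPM in both libraries. The libraries stood apart in choroid plexus markers, a tissue of the adjoining ventricle. Their 8 genes (Ttr, Clic6, Aqp1, Folr1, Slc4a5, Otx2, Kl and Enpp2) summed to 61.0 and 266 TPM, and 3 of the 8 passed 1 TPM in both libraries. Enpp2 alone had 52.4 and 75.4 TPM, and Ttr had 3.62 and 179 TPM. No marker of these lists was at 0 in either library.

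The 2 rRNAs were the most abundant members. mt-Rnr2, the large-subunit rRNA (chrM:1094-2675), had 42973 and 43100.0 TPM. mt-Rnr1, the small-subunit rRNA (chrM:70-1024), had 30973 and 30496 TPM. They ranked 4 and 5 among all genes by TPM in both libraries. The large rRNA stood above the small rRNA by a factor of 1.40 ± 0.0183 (SD, n = 2), and the ranges of the libraries did not overlap. In the second table this factor was 1.62 ± 0.0135. Together the rRNAs took 6.51 ± 0.0553% of counts and 7.43 ± 0.0267% of TPM. The mRNAs took 1.76 ± 0.0757% of counts and 2.79 ± 0.176% of TPM, and the nuclear copies took 0.768 ± 0.0175% of counts and 1.77 ± 0.0531% of TPM. The spike-in mix named in the labels is one for libraries with reduced ribosomal RNA, and how far depletion reached the mitochondrial rRNAs was not tested. Summed TPM of the rRNAs was 2.67 ± 0.159 times that of the 13 mRNAs, and 1.63 ± 0.0762 times that of the mRNAs and nuclear copies together.

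With nuclear copies counted apart, mt-Co1 of complex IV and mt-Cytb of complex III were the highest messages of the gene table. mt-Co1, which encodes the catalytic subunit of cytochrome c oxidase, had 5833 and 5491 TPM. mt-Cytb, the cytochrome b of complex III (chrM:14145-15288), had 3370.2 and 3164 TPM. Both lay above every other mRNA in both libraries. mt-Atp6, at 8672 and 8313 TPM in the second table, came there between mt-Co1 and mt-Cytb, which had 5662 and 5435 TPM.

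The 7 complex I messages spanned a wide range. mt-Nd1 (chrM:2751-3707), a membrane subunit, had 3099 and 2824 TPM. mt-Nd4l and mt-Nd4, which overlap and are carried on a shared message, had 2365 and 2217 TPM and 2214 and 2045 TPM. The ratio of mt-Nd4l to mt-Nd4 was 1.08 ± 0.0111. mt-Nd2 had 1808 and 1614 TPM, mt-Nd3 1758 and 1433 TPM and mt-Nd5 1201 and 1125 TPM. These lie between the high mt-Nd1 and the lowest member of the complex.

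mt-Nd6 (chrM:13552-14070) is the only mRNA encoded on the strand opposite to the others. It had 165.0 and 175 TPM, from 1425 and 1585 counts. None of its windows was shared with another GENCODE M21 transcript. Whether counting used strand is not given, so reads from the opposite strand of the same stretch cannot be told apart from its own. mt-Nd5, its neighbour on the other strand, was 7.28 and 6.43 times as abundant, and mt-Co1 35.3 and 31.4 times. In the second table these factors were 6.12 and 5.58 for mt-Nd5 and 34.6 and 32.0 for mt-Co1.

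The ATP synthase messages also overlap. mt-Atp8, a short subunit gene (chrM:7766-7969), had 2460 and 2187 TPM, and mt-Atp6 had 2903 and 2123 TPM. The ratio of mt-Atp8 to mt-Atp6 was 0.847 and 1.03, so their order differed between the libraries. mt-Atp6 summed with Gm10925, at 9099.7 and 8492 TPM, lay above mt-Atp8 in both. The end of mt-Atp8 is the start of mt-Atp6, and the 43 shared bases are printed in capitals because a read that covers them overlaps both genes.
mt-Atp8: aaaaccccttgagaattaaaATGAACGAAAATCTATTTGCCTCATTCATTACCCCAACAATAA
mt-Atp6: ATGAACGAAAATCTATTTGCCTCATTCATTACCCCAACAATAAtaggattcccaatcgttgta

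By complex, the 7 complex I messages together held 1.21 ± 0.0841% of TPM and the single complex III message 0.329 ± 0.0147%. The 3 messages of complex IV, the cytochrome c oxidase, held 0.757 ± 0.00169%, and with their 2 copies 1.89 ± 0.0669%. The ATP synthase messages held 0.487 ± 0.0751%, and with Gm10925 1.12 ± 0.0630%. In the gene table complex IV thus lay below complex I without the copies and above it with them. The second table had complex IV above complex I without the copies, at 1.64 against 1.63% and 1.48 against 1.42% of TPM. In that table mt-Nd4l of complex I, 297 bases long, had 15.2 and 17.9 TPM, against 2365 and 2217 TPM in the gene table. The part of this drop in the order of the complexes was not tested.

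In the order of mean level, from mt-Co1 down, several neighbours were not separated by the spread of the libraries. Ranges overlapped between mt-Nd1 and mt-Atp6, mt-Atp6 and mt-Atp8, mt-Atp8 and mt-Nd4l, mt-Nd2 and mt-Co3, mt-Co3 and mt-Nd3, and mt-Co2 and mt-Nd6. mt-Co3 had 1444 and 1850.4 TPM. The pairs with nuclear copies make a part of this order uncertain. mt-Co2 was close to its bottom, at 251 and 165 TPM, while its copy Gm28661 had 7149 and 6882 TPM. The deposited credibility interval of mt-Co2 lay above these levels, from 671 to 1436 TPM in replicate 1 and from 765 to 1664 TPM in replicate 2, and above the levels of mt-Nd6.

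**Figure D2:**
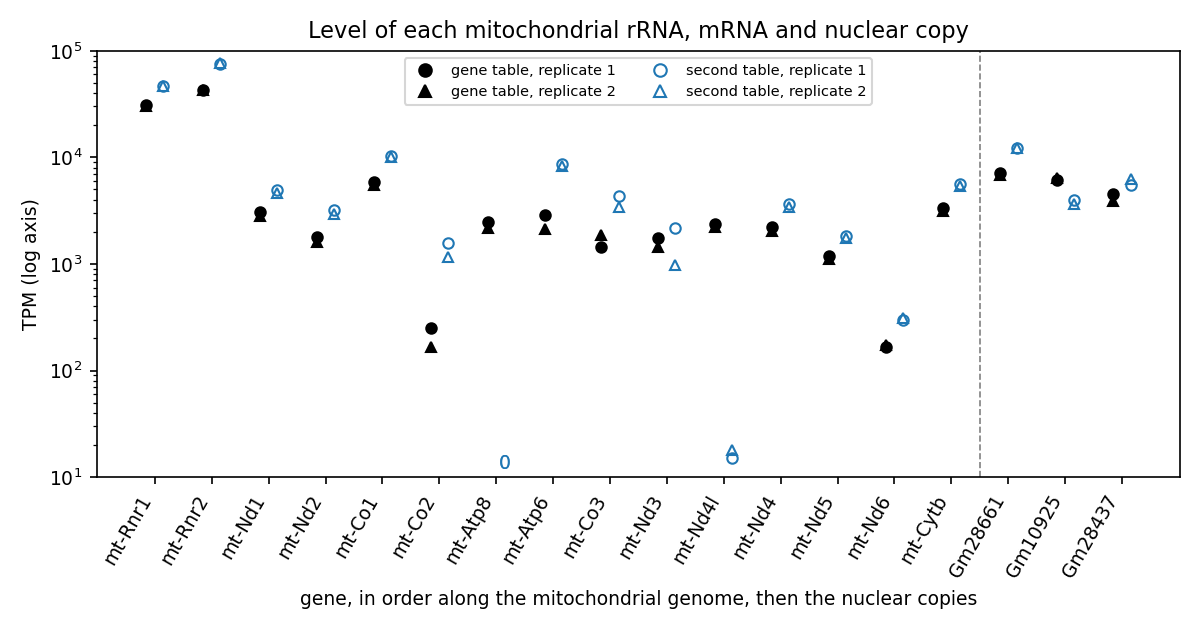
TPM on a log axis for each rRNA and mRNA in the order of the mitochondrial genome and for the 3 nuclear copies, with gene-table values in black, the second table in open blue, circles for replicate 1 and triangles for replicate 2. In the gene table mt-Co2 lies near 208 TPM and its copy Gm28661 near 7016 TPM, and in the second table mt-Atp8 is listed at 0 and mt-Nd4l lies at 15.2 and 17.9 TPM.

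Most reads of each identical pair had been given to the nuclear copy in the gene table. Gm28661 held 85560 of the 88580 counts of its pair in replicate 1 and 86383 of 88470.0 in replicate 2, which is 96.6% and 97.6%. Gm10925 held 68.0% and 74.9% of the counts shared with mt-Atp6. Gm28437 held 76.0% and 68.0% of those shared with mt-Co3. The deposited posterior standard deviation, the authors' measure of how uncertain a count is, differed by less than 1 count between the partners of a pair. It was 4198 counts in replicate 1 for both mt-Co3 and Gm28437 and 3803 for both mt-Atp6 and Gm10925. For mt-Co2 it was 2635 in replicate 1 and 3217 in replicate 2, which is 87.3% and 154% of the gene's own count. For the 7 members with no shared window the standard deviation was at most 9.56e-05% of the count.

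The second table divided the same libraries otherwise. There Gm28661 was 7.73 and 10.5 times as abundant as mt-Co2 in replicates 1 and 2, against 28.5 and 41.6 times in the gene table, where the TPM of mt-Co2 lay below its deposited interval. Gm10925 was below mt-Atp6, at 0.462 and 0.438 times its TPM, against at least 2.13 times in the gene table, so the order of this pair was opposite in the tables. Gm28437 was 1.26 and 1.81 times as abundant as mt-Co3, against 3.17 and 2.12 times. The 4 other pseudogenes of the stretch received unequal shares as well. Gm29216 had 2626 and 2646 TPM, while Gm28439, Gm10222 and Gm28438, identical to their sources over 876, 294 and 342 bases, were listed at 0 in the gene table in both libraries.

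**Figure D3:**
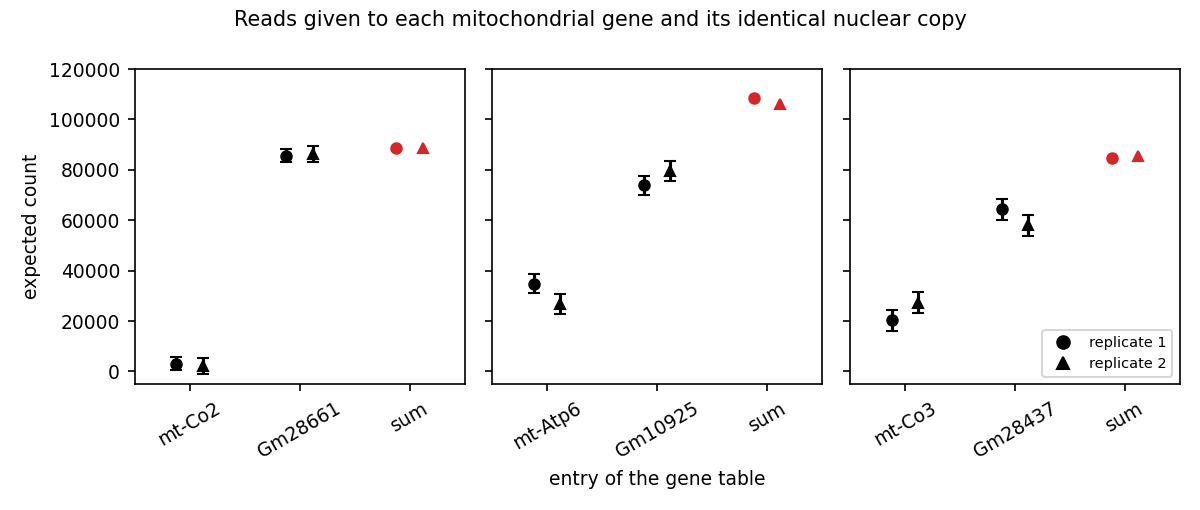
Expected counts (vertical axis) for mt-Co2, mt-Atp6 and mt-Co3, for the matching nuclear copy and for their sum, with circles for replicate 1, triangles for replicate 2 and bars for the deposited posterior standard deviation. The sums in red differ little between the libraries, at 88580 and 88470.0 counts for mt-Co2 with Gm28661, while the points of mt-Atp6, mt-Co3 and their copies move in opposite directions.

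Summed over copy and source, the 3 pairs moved up in the message order. With mt-Co1 left without its copy Gm29216, they took the first 3 places by mean in the gene table. mt-Atp6 with Gm10925 had 9099.7 and 8492 TPM. mt-Co2 with Gm28661 had 7400.4 and 7047 TPM. mt-Co3 with Gm28437 had 6019.6 and 5782 TPM, a range that overlapped that of mt-Co1. Gm29216, at 2626 and 2646 TPM, was not added to mt-Co1. With Gm29216 added, mt-Co1 would lie above the sum for mt-Co3 in both libraries, so the first 3 places depend on that omission. mt-Cytb then took place 5. mt-Nd6 was lowest at 170.0 ± 7.06 TPM, and the next above it was mt-Nd5 at 1163 ± 53.7 TPM. In the second table the sums were 13705 and 13506 TPM for mt-Co2, 12675 and 11953 for mt-Atp6, and 9786 and 9723 for mt-Co3, so mt-Co2 and not mt-Atp6 came first there. mt-Co1, at 10288 and 10003 TPM in that table, lay above the sum for mt-Co3. The mRNAs and copies together held 2.53 ± 0.0932% of counts, against 1.76 ± 0.0757% for the mRNAs alone. Whether any of these reads came from chromosome 1 cannot be told from the tables, since the reference sequences are identical. The sequences of the hybrid's own chromosomes were not examined.

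None of the 22 mitochondrial tRNAs had a read in either library or table. Their entries are 59 to 75 bases long, and 14 are encoded on the plus and 8 on the minus strand. The shortest and the longest are printed to show their size beside the 100-base windows.
mt-Ts2: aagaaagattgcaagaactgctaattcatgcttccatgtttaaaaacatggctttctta
mt-Tl1: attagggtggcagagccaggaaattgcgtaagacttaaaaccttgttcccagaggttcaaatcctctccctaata
mt-Ts2 (chrM:11613-11671) and mt-Tl1 (chrM:2676-2750) carry serine and leucine. The gene table gave all 22 an effective length of 0. The same held for all 2383 mouse genes with a single transcript under 100 bases, none of which had a count above 0 in either table. No level of the tRNAs can therefore be read from these tables.

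Beyond the tRNAs, the tables diverged for the shortest messages. mt-Atp8, with 204 bases, had 5311 and 4952 counts in replicates 1 and 2 in the gene table and was listed at 0 in the second table in both. mt-Nd4l, with 297 bases, had 9629 and 9469 counts in the gene table and 15 and 18 in the second table. mt-Nd3, with 348 bases, had 9000.0 and 7694 counts in the gene table and 2714 and 1224 in the second table. Zeros were frequent among other genes of this size. Of 101 other single-transcript genes of 200 to 299 bases with at least 1 TPM, 91.1% were at 0 in the second table, and of 147 genes of 300 to 399 bases 48.3% were. Among members of at least 955 bases the mean log2 ratio of the second table's TPM to that of the gene table was 0.61 to 0.84, beside a median of 0.75 over 15428 genes. mt-Co2 lay at 6.26 and 7.08 times, mt-Atp6 at 2.99 and 3.92 times, mt-Co3 at 2.99 and 1.87 times and Gm10925 at 0.646 and 0.571 times.

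**Figure D4:**
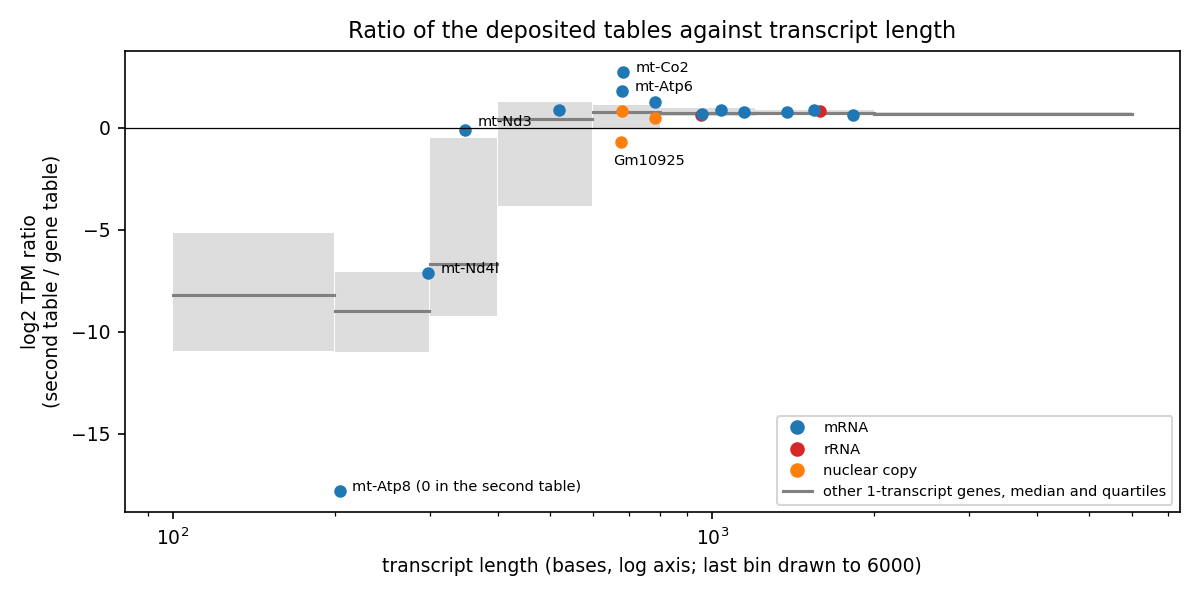
Log2 ratio of TPM in the second table to TPM in the gene table, each with 0.01 TPM added (vertical axis), against transcript length in bases on a log axis, for members as points and for other genes with 1 transcript as the median (line) and quartiles (band) of each length bin. Members of 955 bases or more lie at 0.61 to 0.84, mt-Nd4l lies in the band of short genes and mt-Atp8 is at 0 in the second table. The points of mt-Co2, mt-Atp6, mt-Co3 and mt-Nd3 lie above the band of their length, and that of Gm10925 lies below it.

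Between the libraries the members differed little. For the 18 members with reads, rounded counts were scaled by TMM and tested with a two-sided exact binomial test. P-values were adjusted by Benjamini-Hochberg over the 18270 genes whose counts averaged 10 or more. This test compares 2 libraries, not conditions, and its intervals cover counting error only. None of the 18 reached an adjusted p under 0.05 with a 1.5-fold difference, where 1.88% of all genes tested did, 0.662% higher in replicate 1 and 1.22% higher in replicate 2. At an adjusted p under 0.05 alone, 16 of 18 members passed, 13 higher in replicate 1 and 3 higher in replicate 2, where 11.4% of all genes tested did, 4.83% higher in replicate 1 and 6.52% higher in replicate 2. The share that passed was larger among deeply read genes. It was 27.1% (26.8% with the members left out) where the mean count reached 1505, that of mt-Nd6, the lowest of the members, and only 0.182% of those genes also passed 1.5-fold. Among the 120 genes whose mean count reached 20000, 59.2% passed, 12 of 13 members among them, and 55.1% of the 107 among them that are no members.

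The messages were slightly lower in replicate 2. Of 13 mRNAs, 11 had lower scaled counts there, as had 50.6% of all genes tested. The median of the 13 was -0.09 on the log2 scale, beside -0.00248 over all genes tested. Without mt-Co2, mt-Atp6 and mt-Co3, whose reads are divided with the copies, 9 of 10 mRNAs were lower. An 11 to 2 division of the 13 was found under each of the 4 other scalings. These used DESeq2 size factors, the total of mouse gene counts, the ERCC total and the counts outside the members. Among mRNAs with no shared window, mt-Nd1 had 54675 and 52260.0 counts in replicates 1 and 2, a ratio of replicate 2 to replicate 1 of 0.928 (95% exact Clopper-Pearson interval, 0.917 to 0.940). mt-Cytb had 72420.0 and 71318 counts and a ratio of 0.957 (0.947 to 0.966), mt-Nd5 42594 and 41849 counts and a ratio of 0.954 (0.942 to 0.967). mt-Atp8 had a ratio of 0.906 (0.871 to 0.942). These 4 differences passed the test, and each was under 10%. mt-Nd6 did not pass, with a ratio of 1.08 (1.01 to 1.16; adjusted p = 0.183, exact binomial test), and its direction was opposite to that of the other messages without shared windows. With ERCC totals it passed, at a log2 ratio of 0.15 (adjusted p = 0.0350, exact binomial test), where the median over all genes tested was 0.0371. Of the 5 other messages with shared windows outside the 3 pairs, 4 had ratios of 0.909 for mt-Nd2, 0.959 for mt-Co1, 0.941 for mt-Nd4 and 0.955 for mt-Nd4l. The call of mt-Nd4l was lost with DESeq2 size factors (adjusted p = 0.0997, exact binomial test) and with ERCC totals (adjusted p = 0.503), and its scaled count fell by 432, at a combined posterior standard deviation of 428 counts. The fifth, mt-Nd3, had the lowest ratio among messages outside the 3 pairs, 0.830 (0.805 to 0.856), and in the second table it stood at 0.441, the one member past 1.5-fold in either table.

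The rRNAs differed by little between the libraries. mt-Rnr1 had 545170.0 and 562995 counts, a ratio of 1.00 (0.999 to 1.01; adjusted p = 0.363, exact binomial test). It passed the test, higher in replicate 2, with DESeq2 size factors (log2 ratio 0.02, adjusted p = 6.04e-11, exact binomial test) and with ERCC totals (log2 ratio 0.04, adjusted p = 4.70e-55). Under these scalings the median log2 ratio over all genes tested was 0.0128 and 0.0371. mt-Rnr2 had 1310435 and 1378502 counts and a ratio of 1.02 (1.02 to 1.02), which passed the test with a difference near 2%, and with ERCC totals its log2 ratio was 0.07. Summed TPM of the rRNAs was 2.56 times that of the mRNAs in replicate 1 and 2.79 times in replicate 2. Some markers of cell types moved between the libraries too. All 8 choroid plexus markers were called higher in replicate 2, with a median log2 ratio of 2.93. Of the 6 neuronal markers 3 were called. Prox1, a marker of dentate granule cells, had a log2 ratio of 0.49. Wfs1, a marker of CA1, had -0.25 and Neurod6, a marker of pyramidal cells, -0.20. All 4 oligodendrocyte markers were lower in replicate 2, with a median log2 ratio of -0.11, and 2 of them were called. Of 4 endothelial markers 2 were called, 1 in each direction. Of 4 astrocyte markers 1 was called, higher in replicate 2, and of 4 microglial markers 0. For comparison, 11.4% of all genes tested were called, and 27.1% of those read as deeply as mt-Nd6 or deeper. The part of the marker differences in the members' ratios was not tested. In bulk tissue fewer cells of a type and less RNA per cell cannot be told apart.

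The ratios farthest from 1 were those of mt-Co2, mt-Atp6 and mt-Co3, and in 2 of the 3 pairs copy and source went in opposite directions. mt-Co2 had 3020.0 and 2087 counts, a ratio of 0.671 (0.635 to 0.710), and Gm28661 had a ratio of 0.981. The call of Gm28661 was lost with DESeq2 size factors (adjusted p = 0.261, exact binomial test). With ERCC totals its direction reversed and it did not pass (adjusted p = 0.334, exact binomial test). mt-Atp6 had 34741 and 26649 counts and a ratio of 0.745 (0.733 to 0.757), while Gm10925 had a ratio of 1.05 (1.04 to 1.06). mt-Co3 had 20342 and 27337 counts and a ratio of 1.31 (1.28 to 1.33), while Gm28437 had a ratio of 0.875 (0.866 to 0.885). These intervals do not hold the uncertainty of the division. From replicate 1 to replicate 2 the scaled count of mt-Co2 fell by 993, at a combined posterior standard deviation of 4088 counts. The differences of Gm28661 and Gm10925 were also under their combined standard deviation. Those of mt-Atp6, mt-Co3 and Gm28437 were above it but under 2 times its size. Summed with their copies the ratios were 0.970 (0.961 to 0.979) for mt-Co2, 0.950 (0.942 to 0.958) for mt-Atp6 and 0.979 (0.969 to 0.988) for mt-Co3. In the second table, where mt-Co3 was lower in replicate 2 and Gm28437 higher, the sums had ratios of 0.974, 0.932 and 0.984.

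**Figure D5:**
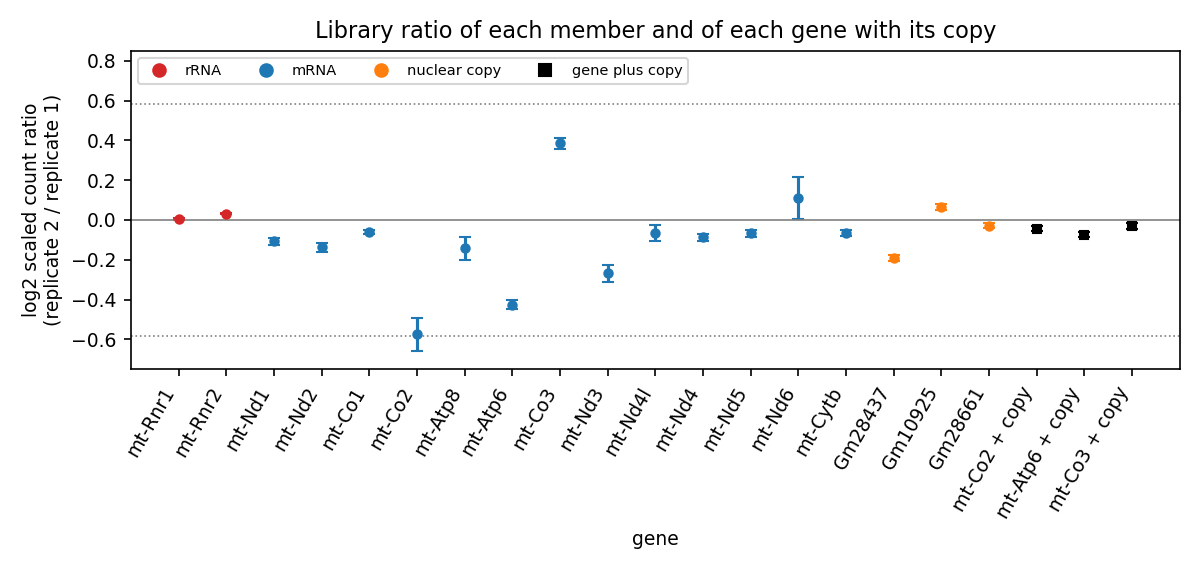
Log2 ratio of scaled counts, replicate 2 over replicate 1 (vertical axis), for each member with reads and for the 3 genes summed with their copies, with exact 95% intervals of the counts as bars and dotted lines at 1.5-fold. The sums in black lie at ratios between 0.950 and 0.979, while mt-Co2, mt-Atp6 and mt-Co3 on their own lie at 0.671, 0.745 and 1.31.

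Nuclear genes for replication of mitochondrial DNA and for transcription, processing, stability and translation of its RNA lay far below the mitochondrial rRNAs and messages. All 40 genes of this list passed 1 TPM in both libraries, with mean levels from 1.70 to 54.6 TPM. The highest was Fastk, the founder of a family of regulators of mitochondrial RNA, at 52.3 and 56.9 TPM. Rexo2, an exonuclease of short RNAs, followed at 38.8 and 41.9 TPM. Polg, the catalytic subunit of the mitochondrial DNA polymerase, had 37.8 and 35.9 TPM, and Slirp, a partner of Lrpprc in message stability, had 37.7 and 35.8 TPM. These 4 levels lie below that of mt-Nd6, the mitochondrial message with the lowest mean. The RNA polymerase gene Polrmt had 18.3 and 20.8 TPM and the DNA-packaging and transcription factor gene Tfam 16.3 and 18.1 TPM.

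Of the 40 machinery genes, 1 passed the test between the libraries at an adjusted p under 0.05, where 11.4% of all genes tested did, and none with 1.5-fold. This gene was Elac2, the enzyme that cuts tRNA precursors at their 3′ end, named after its values were seen, with 682 and 587 counts and a ratio of 0.836 (0.747 to 0.935; adjusted p = 0.0177, exact binomial test). The list's median log2 ratio was -0.00697, beside -0.00248 over all genes tested, with 19 members higher in replicate 2 and 21 higher in replicate 1. Scaled to ERCC totals, Elac2 did not pass and Fastk did, higher in replicate 2 with a ratio of 1.11. Its log2 ratio was 0.15 there, beside a median of 0.0371 over all genes tested.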

How the data were processed

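The assembly was mm10 with annotation M21, as the deposited file lists state. The gene table holds the authors' expected counts and TPM and a posterior standard deviation of each count, in the columns that RSEM writes. The second table holds estimated counts and TPM per transcript, also deposited by the authors, in the columns that kallisto writes. Which programs made them, and whether counting used strand, is not given in the sources used here. Entries that are no mouse genes held 0.421% and 0.408% of counts and were left out of tests.

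Each member had 1 transcript. Symbols came from the second table and matched the annotation. Expected counts were rounded, scaled by TMM (edgeR 4.0.16, R 4.3.3) and compared by an exact two-sided binomial test (scipy 1.17.1), since 1 library against 1 library leaves no residual degrees of freedom. Ratios add 0.5 counts. The test and its intervals were run on simulated Poisson counts with the true scaling given. Such counts hold no spread between libraries and no uncertain division of reads, so neither was tested. All members with reads are named, and of the 22 tRNAs the shortest and the longest. Of the machinery list the 4 highest by mean TPM are named, and Polrmt, Tfam and Elac2 were added after their values were seen. Sequences were compared with Biopython 1.88. Members and lists were chosen with earlier results of these data known. Reads carry no molecular identifiers in the tables, so they are not independent molecules, and p-values cover counting error only, with no estimate of the spread between samples. Alternatives were other scalings (DESeq2 1.42.0 size factors, totals, ERCC), other filters and pseudocounts, the second table, the sum of copy and source, and each library alone.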

Additional observations from a re-analysis of the deposited data

How the results depend on the processing

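No paired analysis was possible because there is 1 group. Leaving out either library ends the test between them. Over 125 values of member ratios under other settings, 111 kept direction and side of the threshold and 8 reversed. With direction kept, 3 lost the call (mt-Nd4l under DESeq2 size factors and ERCC totals, Gm28661 under DESeq2 size factors). Another 3 gained it (mt-Rnr1 under DESeq2 size factors and ERCC totals, mt-Nd6 under ERCC totals). Among the 8 reversed, the call was also lost for Gm28661 under ERCC totals and in the second table, and for mt-Nd4l in the second table. Settings that changed only the filter on counts are among the 125. They left each ratio as it was, so direction could not change there and only the adjusted p could. For mt-Rnr1 the log2 ratio was -0.00153 and -0.00238 with scaling to the total of mouse gene counts and to counts outside the members. For Gm28661 it was 0.0113 with ERCC scaling, where the median over all genes tested was 0.0371. In the second table it was -0.34 for mt-Co3, 0.22 for mt-Nd4l, -0.15 for Gm10925, 0.18 for Gm28437 and 0.00683 for Gm28661. Summing copy and source gave -0.0735 where Gm10925 alone was positive and -0.0312 where mt-Co3 alone was. A single member, mt-Nd3, passed 1.5-fold in the second table (a count of 1, against none). In that table mRNAs held 4.50% of TPM, rRNAs 6.34% of counts and 12.4% of TPM, and nuclear copies 0.417% of counts and 2.22% of TPM. With all table entries as denominator the rRNAs held 7.38% of TPM. The log2 table ratio of mt-Nd3, -0.12 over both, was 0.31 in replicate 1 and -0.56 in replicate 2. The causes of these changes were not tested, other than that summing removes the division. Depth was lowest for mt-Nd6, with 1425 and 1585 counts.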

Other observations

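The deposited credibility interval of TPM in the gene table held the deposited TPM of mt-Nd6 in both libraries and of mt-Atp6 in replicate 1, and of no other member with reads. For Gm28661 in replicate 1 it ran from 5711 to 6490.5 TPM, below its 7149 TPM. For mt-Rnr1, which shares no window, it ran from 29893 to 30065 TPM and also lay below its 30973 TPM.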
